A study of Mus musculus with 30 samples.

Results

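The transcripts of 7 inducible chaperones and cochaperones, Hsph1, Hspa4l, Hsp90aa1, Dnaja1, Dnajb1, Bag3 and Hspe1, were followed in the liver of 30 mice. They were taken as the probes whose platform gene symbol is one of these names, which gave 11 probes for 7 genes, of 15505 probes and 8996 genes in all. The genes were selected on measured values of these same livers, the log2 differences between gavages and their water controls, inulin above all, so those differences are given as a description. All 7 genes had a probe and stayed in the analysis, since no filter on low values was set.

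Each array measured the liver RNA of 1 mouse, so replicates are separate animals. Mice were 8 weeks old when gavage began and received 500 µl each day for 30 days beside standard chow and water. In the chicory experiment, males and females received an aqueous decoction of root flour of the chicory genotype G12 or G35, at a daily 10 mg of root powder for each mouse; their control 1 mice received water. In the inulin experiment, run separately with its own water animals (control 2), they received inulin, the fructan stored in chicory roots, at 6.9 mg per mouse and day, an amount set to that in G35 roots. Sex and gavage gave 10 groups, each of 3 mice. No group carried a transgene or a deletion per the labels, and the strain is not given in the sources used here. The decoctions hold other root compounds besides inulin, whose composition was not analysed here.

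Cytosolic chaperones keep proteins folded and soluble. HSP70 binds unfolded stretches of protein in a cycle driven by ATP, in which J-domain proteins deliver substrates and stimulate hydrolysis and exchange factors release the nucleotide, while HSP90 completes the folding of kinases and steroid receptors. Heat shock factor 1 (HSF1) raises the transcription of many of these genes when unfolded proteins accumulate, by binding repeats of the letters nGAAn, the heat shock element, near their starts. In rodent liver the abundance of such transcripts is also known to follow daily feeding and body temperature.

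Heat shock element letters are printed here because the genes were grouped as HSF1 dependent. In the RefSeq promoter windows of GRCm38.p6, which run from 250 bases before to 50 bases after an annotated start, windows were given for 6 of the 7 genes and none for Hsp90aa1. A pair of inverted repeats (GAANNTTC or TTCNNGAA, which read the same on both strands as a pattern) was found in 4 of the 6, against 17.0% of the 27025 genes with a window. A run of 3 such repeats in alternating orientation with the same spacing, on either strand, holds both pairs and was found in 2 of the 6, Hsph1 and Hspe1, against 0.662% of genes. Dnajb1 and Hspa4l held neither in these windows. Stretches of at most 30 bases are given 5′ to 3′ on the gene's strand, with the matched letters in capitals and positions counted from the annotated start.

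Hspe1, chr1:55088053-55088082, plus strand, from position -95 to -66: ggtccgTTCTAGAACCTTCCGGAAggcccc
Hsph1, chr5:149636351-149636380, minus strand, from position -44 to -15: gggtagaatctTTCTCGAAggctcgagaag
Hsph1, chr5:149636287-149636308, minus strand, from position 29 to 50: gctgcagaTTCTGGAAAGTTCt
Dnaja1, chr4:40722333-40722362, plus strand, from position -135 to -106: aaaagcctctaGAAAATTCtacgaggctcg
Bag3, chr7:128523614-128523632, plus strand, from position 32 to 50: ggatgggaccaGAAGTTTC

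In the Hspe1 stretch the repeats run without a break through 18 capitals, and the same window lies close to starts of Hspd1, the gene of its mitochondrial partner, on the other strand. The Hsph1 triple lies downstream of the start used here and is followed by the end of the window. The remaining loci, on the same build, are Hspa4l at chr3:40744500-40796103, Dnajb1 at chr8:83608175-83612653 and Hsp90aa1 at chr12:110691036-110696395. A match is a description of letters only, and no binding was measured.

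Each experiment had 5 slides, 10 in all, and array median intensities ran from 141 to 511. In males of each experiment every control array had block position 4 on its slide and no treated male array did, so position and gavage cannot be told apart in males. Differences between control 2 and control 1 likewise cannot be told apart from the experiments' slides. Hepatocyte markers were present on every array: 7 of 8 were measured, and the log2 of their summed intensity ran from 17.45 to 18.00. Values of whole liver do not separate fewer cells of a type from less RNA per cell. All levels below are log2 of the background-corrected, quantile-normalised intensity of 1 probe per gene.

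The female mice given water in the inulin experiment had the lowest levels of most of these genes. Bag3, Hsph1, Hsp90aa1 and Dnaja1 each had all 3 female control 2 arrays below the other 27 arrays. Only 12 of the 8996 genes (0.133%) had this pattern. The mean of female control 2 was the lowest of the 10 group means for 6 of the 7 genes, against 9.52% of all genes; for Hspe1 it was male control 1. The choice of genes with high inulin values relative to control 2 favours low control 2 values, so these counts are no independent evidence.

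**Figure D1:**
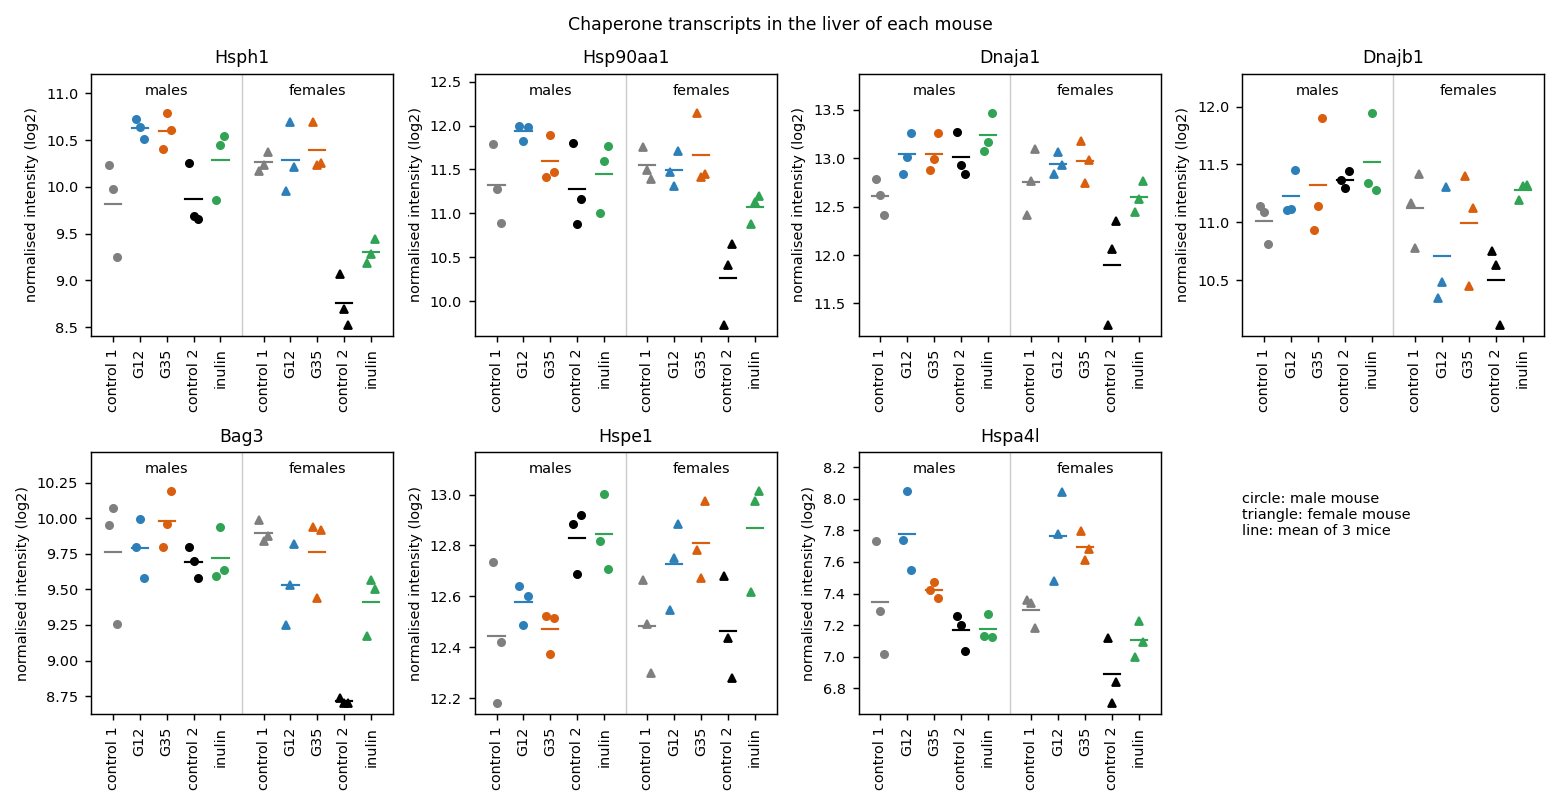
Normalised log2 intensity (y axis) of each of the 7 chaperone genes in each mouse, by gavage group (x axis), with males as circles, females as triangles and the mean of 3 mice as a line. The female control 2 mice of Bag3 sit between 8.70 and 8.74, below the other 27 arrays, whereas for Hspe1 they lie among the other groups.

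Hsph1 encodes HSP110, an exchange factor for HSP70 that also holds unfolded protein. Its levels in female control 2 were 9.07, 8.70 and 8.52, and in female control 1 they were 10.17, 10.24 and 10.38. Male control 2 arrays read 10.26, 9.69 and 9.66, and male control 1 arrays 10.23, 9.97 and 9.26. The female control groups were thus far apart and the male ones overlapped. Female inulin mice lay between their controls and the chicory females, at 9.19, 9.28 and 9.44. Across all arrays Hsph1 ran from 8.52 to 10.79, a range of 2.27. A second Hsph1 probe followed the first over the 30 arrays (r = 0.97).

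Hspa4l, a relative of HSP110 in the same family that is strongly expressed in testis, was dim on these arrays, at 93 to 291 intensity units before normalization. Female control 2 mice read 7.12, 6.70 and 6.84 and female inulin mice 7.00, 7.22 and 7.09, which overlap. The highest values were in chicory mice: male G12 read 7.74, 8.05 and 7.55 and female G12 7.48, 7.77 and 8.04. Female G35 mice, at 7.80, 7.61 and 7.68, all lay above female control 1, at 7.36, 7.34 and 7.18.

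Hsp90aa1 encodes the stress-inducible cytosolic HSP90. Female control 2 mice read 9.73, 10.41 and 10.65 and female inulin mice 10.88, 11.13 and 11.20, without overlap. Males given inulin read 11.00, 11.59 and 11.77, within the spread of male control 2 at 11.80, 10.88 and 11.16. The highest group was male G12, at 11.99, 11.82 and 11.99. Replicate 1 of female control 2 was the lowest of all 30 arrays for this gene and for Dnaja1.

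Dnaja1, a J-domain partner of HSP70 of the type with a zinc finger, had its low group among the same females. Its female control 2 levels were 11.28, 12.06 and 12.35, and its female inulin levels 12.44, 12.58 and 12.77. In males control 2 read 13.27, 12.93 and 12.84, all above control 1 at 12.79, 12.62 and 12.41, as in 21.3% of all genes; that male difference, 0.40, was 0.02 under array median centring. Another Dnaja1 probe was near background, with a median of 82.5 units, and followed the first only weakly (r = 0.29).

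Dnajb1 encodes HSP40, the J-domain protein that serves HSP70 in disaggregation and that dampens HSF1. In female control 2 it read 10.75, 10.63 and 10.11, and in female inulin 11.20, 11.31 and 11.32, again without overlap. Female G12 mice were among the low ones as well, at 10.34, 10.49 and 11.30. Male control 2 was tight at 11.37, 11.29 and 11.44.

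Bag3, an exchange factor that links HSP70 to small heat shock proteins and to selective autophagy, had the tightest low group. Female control 2 mice read 8.74, 8.70 and 8.70, female inulin mice 9.17, 9.57 and 9.50, and female control 1 mice 9.99, 9.84 and 9.87. These 3 groups did not overlap each other. In males all 5 groups overlapped, with control 2 at 9.80, 9.70 and 9.58 and inulin at 9.59, 9.94 and 9.64.

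Hspe1 encodes HSP10, the lid of the mitochondrial HSP60 chamber, and differs from the others in its place of action. It varied least, from 12.18 to 13.01 over the 30 arrays, with a within-group SD of 0.17, against 0.35 for Dnajb1. Female control 2 mice read 12.68, 12.44 and 12.28 and female inulin mice 12.62, 12.98 and 13.01, with overlap. Male control 2 and male inulin mice lay together, at 12.88, 12.69 and 12.92 and at 12.82, 13.00 and 12.71. Of its other probes, 1 followed it (r = 0.73) and 1 did not (r = -0.19).

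The water groups of the 2 experiments asked how far the baseline of these genes moved without any chicory or inulin. The same water arrays entered the differences on which the genes were selected, and selection on high inulin differences favours low control 2 values. Comparisons among water mice are therefore a description as well: differences are given with their SE and no p-value, nothing is read from the counts that passed, and the comparisons within each sex or water group were added after the values were seen. In females Hsph1 was lower in control 2 than in control 1 by a log2 difference of -1.50 ± 0.23 (SE, 3 mice against 3), that is 0.354 times its level. Hsp90aa1 differed by -1.28 ± 0.26, Bag3 by -1.19 ± 0.19 and Dnaja1 by -0.86 ± 0.21. These 4 of 7 were at an adjusted p under 0.05 in limma, all lower, where 7.75% of all genes passed in either direction and 3.48% were lower. Dnajb1 at -0.62 ± 0.27, Hspa4l at -0.40 ± 0.16 and Hspe1 at -0.02 ± 0.15 did not pass. All female control 2 arrays lay below all female control 1 arrays for 6 of 7 genes, Hspe1 being the exception, against 9.59% of all genes.

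In males 0 of 7 passed in the same comparison, against 6.93% of all genes, and Hspe1 alone had an unadjusted p under 0.05 in limma, as did 24.6% of all genes. Hsph1 differed by 0.05 ± 0.23 and Bag3 by -0.07 ± 0.19 there, and the largest positive differences were in Dnaja1, at 0.40 ± 0.21, and Hspe1, at 0.39 ± 0.15. Both depended on the scaling: they were 0.09 and 0.10 with 75th percentile scaling and 0.02 and 0.04 with array median centring. The control groups of the male Hsph1, Hsp90aa1 and Bag3 overlapped. Without male control 1 replicate 3, the lowest of the male control 1 arrays in these genes, the male difference of Hsph1 became -0.23 and that of Bag3 -0.32. Averaged over the sexes, Hsph1 at -0.72 ± 0.16, Bag3 at -0.63 ± 0.13 and Hsp90aa1 at -0.66 ± 0.19 were lower in control 2, 3 of 7 genes, in a comparison where 22.9% of all genes passed.

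The difference between the sexes in this shift passed for 0 of 7 genes and for 0 of the 8996 genes (0%). An unadjusted p under 0.05 in limma was found for 5 of the 7, against 6.18% of all genes. The choice of genes favoured low female control 2 values, so the counts here are a description and nothing is read from them. The sex difference was -1.55 ± 0.33 for Hsph1, -1.26 ± 0.30 for Dnaja1, -1.24 ± 0.37 for Hsp90aa1 and -1.12 ± 0.26 for Bag3. With slide as a fixed block, Dnaja1 at -1.88 ± 0.29 and Hsp90aa1 at -1.69 ± 0.40 passed, 2 of 7, against 1.43% of all genes. These values rest on female control 2 replicate 1, as given under the flagged results. With slide as a random block Hsph1, at -1.54, and Dnaja1, at -1.39, passed. The female calls between control 2 and control 1 depended on the arrays fitted. On the arrays of the female controls alone 0 of 7 passed, and the cause was not tested. The Dnaja1 call in females also ended without female control 2 replicate 1 (-0.55) or without female control 1 replicate 3 (-0.69).

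Females and males given water were set side by side next, again as a description, since the female control 2 arrays had a part in the choice of genes. In control 2 females were lower than males in Bag3 by a log2 difference of -0.98 ± 0.19, Dnaja1 by -1.11 ± 0.21, Hsph1 by -1.11 ± 0.23 and Hsp90aa1 by -1.02 ± 0.26. These 4 of 7 genes passed, a count that the choice favoured, beside 1.6% of all genes. With slide as a fixed block 2 of 7 passed, Dnaja1 (-1.61) and Hsp90aa1 (-1.56), beside 5.42% of all genes. In that experiment the sexes share only slide 10, through its 1 female array, control 2 replicate 1. That array was the lowest of all 30 for both genes, so these values with slide rest on it. Without male control 2 replicate 1, the Hsph1 and Hsp90aa1 calls ended, at -0.91 and -0.76. The Hsp90aa1 call also ended without any 1 of 3 other arrays, replicates 1 and 2 of female control 2 and replicate 3 of male control 2, and under 3 other scalings, and on the arrays of these 2 groups alone only Bag3 passed.

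In control 1 each of the 7 differences between the sexes was smaller in size than in control 2. With slide as a fixed block that of Hsph1 was 0.58 ± 0.21. None of the 7 passed in limma, against 2.53% of all genes, 0 of 7 had an unadjusted p under 0.05 (15.2% of all genes did), and 6 of the 7 were higher in females, from 0.04 for Hspe1 to 0.44 ± 0.23 for Hsph1, with Hspa4l at -0.06 ± 0.16. Without male control 1 replicate 3, Hsph1 stood at 0.16 and Bag3 at -0.11, and under array median centring Dnaja1, Dnajb1 and Hspe1 were just below 0. Pooled over both water groups, 0 of 7 passed, against 5.46% of all genes, 3 had an unadjusted p under 0.05 in limma, against 19.8%, and Dnaja1 stood at -0.48 ± 0.15 and Bag3 at -0.42 ± 0.13. The calls moved with the model: Dnaja1 (-0.67 ± 0.14) and Hsp90aa1 (-0.72 ± 0.20) passed with slide as a fixed block, where 12.6% of all genes did, Dnaja1 (-0.51) and Bag3 (-0.41) with slide as a random block, and Dnaja1 (-0.48) with replicate number as a block.

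**Figure D2:**
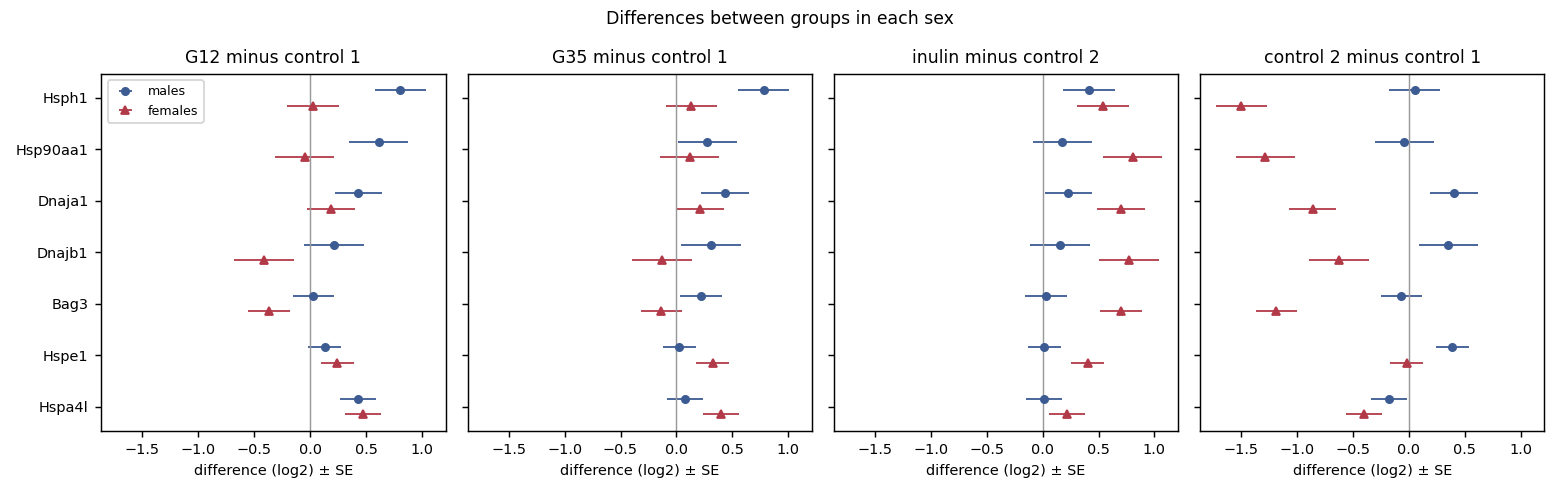
Log2 differences (x axis) with standard errors of limma's fit for each chaperone gene (y axis), in males (blue circles) and females (red triangles), for the 3 gavages against their water controls and for control 2 against control 1. In the panel of control 2 against control 1 the females reach -1.50 for Hsph1, and in the inulin panel all 7 female values are above 0.

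Inulin was compared with the water mice of its own experiment. All 7 genes stood higher with inulin, averaged over the sexes (6 mice against 6), from 0.11 ± 0.11 for Hspa4l to 0.49 ± 0.19 for Hsp90aa1, with a median of 0.47, against -0.01 for all genes. None of the 7 passed, and the same was true of all genes (0%; 0.0445% with slide as a fixed block); 178 genes, 1.98%, had an unadjusted p under 0.05. The median of the 7 was 0.35 with slide in the model. Where arrays shared both sex and slide, Dnaja1 and Hsph1 were higher with inulin in 5 of 5 such sets, by 0.09 to 0.61 and by 0.17 to 0.79. Dnajb1, Hsp90aa1 and Hspe1 were higher in 4 of 5, and Bag3 and Hspa4l in 3 of 5. The genes were chosen on these differences and the share over all genes is not given, so nothing is read from these counts.

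Most of that height came from females. Their log2 differences were 0.81 ± 0.26 for Hsp90aa1, 0.78 ± 0.27 for Dnajb1, 0.70 ± 0.21 for Dnaja1, 0.70 ± 0.19 for Bag3, 0.54 ± 0.23 for Hsph1, 0.40 ± 0.15 for Hspe1 and 0.22 ± 0.16 for Hspa4l. That of Dnaja1 was 0.39 both with slide as a fixed block and without female control 2 replicate 1, and that of Hspa4l was 0.44 under 75th percentile scaling. Every female inulin array lay above every female control 2 array for 5 of 7 genes, against 3.19% of all genes, a count that the choice of genes used. In males the differences ran from 0.01 for Hspa4l and Hspe1 to 0.42 ± 0.23 for Hsph1, and 0 of 7 genes were free of overlap, against 4.75% of all genes. The sex difference in the inulin effect passed for 0 of 7 genes, with Bag3 at 0.67 ± 0.26 and Hsph1 at 0.12 ± 0.33, and for 0 of all genes; Bag3 alone among the 7 had an unadjusted p under 0.05, at 0.0177, against 3.36% of all genes. On the 2 slides that hold females of both groups, Bag3 differed by 0.83 and 0.48, and Dnaja1 by 0.61 and 0.09.

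Set beside both water groups, inulin females lay below control 1 females for Hsph1 and Bag3, at means of 9.30 against 10.26 and 9.41 against 9.90, and above them for Hspe1, at 12.87 against 12.48. These groups belong to different experiments and the difference was not tested. Erythroid markers, of which 6 of 11 were measured, were lower with inulin in females for 6 of 6 genes, with log2 summed intensities of 14.78 to 15.35 against 15.67 to 16.29 in female control 2. They were also lower in control 2 than in control 1, 6 of 6, of which 5 passed, in a comparison where 22.9% of all genes passed and 9.25% were lower. Their part in the chaperone values was not tested. Hepatocyte markers in these females spanned 17.77 to 17.88 with inulin and 17.56 to 17.83 in control 2.

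G35 was compared with control 1. All 7 genes stood higher, from 0.04 ± 0.13 for Bag3 (-0.03 with slide as a fixed block) to 0.46 ± 0.16 for Hsph1, with a median of 0.20, against -0.01 for all genes, and 0 of 7 passed, against 0.0556% of all genes (0.456% with slide as a fixed block; 7.87% had an unadjusted p under 0.05). With slide in the model Hsph1 stood at 0.56 ± 0.15 and Dnaja1 at 0.45 ± 0.12, and both were higher in 4 of 4 sets of the same sex and slide. Hsp90aa1, Hspa4l and Hspe1 were higher in 3 of 4, Dnajb1 in 2 of 4 and Bag3 in 1 of 4. Nothing is read from these counts either. In males Hsph1 read 10.41, 10.79 and 10.60 with G35 and 10.23, 9.97 and 9.26 in control 1, which do not overlap. Dnaja1 was the other male gene without overlap, 2 of 7, against 6.48% of all genes. In females Hspe1 and Hspa4l had every G35 array above every control 1 array, again 2 of 7, against 4.88%. Kupffer cell markers, of which 11 of 11 were measured, all stood higher with G35 averaged over the sexes, with log2 sums of 12.29 to 12.86 against 12.29 to 12.34 in males and 12.52 to 13.18 against 12.37 to 13.00 in females. Their part in the chaperone values was not tested.

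G12 against the same control 1 mice gave a different order of genes. Hspa4l came first at 0.45 ± 0.11, then Hsph1 at 0.42 ± 0.16, Dnaja1 at 0.31 ± 0.15, Hsp90aa1 at 0.28 ± 0.19 and Hspe1 at 0.19 ± 0.10, while Dnajb1 stood at -0.10 ± 0.19 and Bag3 at -0.17 ± 0.13. The median was 0.28, against 0.01 for all genes, and 0 of 7 passed, as did 0 of all genes (0%; 0.0333% with slide as a fixed block; 5.21% had an unadjusted p under 0.05). Hspa4l and Dnaja1 were higher in 4 of 4 sets of the same sex and slide, and Bag3 and Dnajb1 in 1 of 4. Hsph1 was higher in 3 of 4, and Hsp90aa1 and Hspe1 in 2 of 4. Male G12 arrays all lay above male control 1 for Hsph1, Hsp90aa1 and Dnaja1, 3 of 7, against 5.6% of all genes. Among females only Hspa4l did, against 5.44%, and Bag3 lay wholly below, against 4.96%. G35 and G12 share control 1, so their values are given side by side only.

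Several male values rest on 1 array. Male control 1 replicate 3 was the lowest of its experiment and sex in all 7 genes taken as a mean, at 10.30 against 10.64 and 10.91 in the other male controls, and below the mean of its sex and experiment in each of the 7. Without it the male G35 difference of Hsph1 went from 0.78 to 0.50, that of Hsp90aa1 from 0.27 to 0.06 and that of Bag3 from 0.22 to -0.03. The male G12 differences of Hsph1 and Hsp90aa1 went from 0.81 to 0.53 and from 0.61 to 0.40. Averaged over the sexes Hsph1 then stood at 0.32 with G35 and 0.28 with G12.

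G35 and G12 differed in 0 of 7 genes in limma, 0 of them at an unadjusted p under 0.05, from -0.21 ± 0.11 for Hspa4l to 0.21 ± 0.13 for Bag3, and the inulin and G35 effects also differed in 0 of 7, by either measure, from -0.13 ± 0.16 for Hspa4l to 0.38 ± 0.27 for Dnajb1. Both comparisons called 0% of all genes, with 4.54% and 2.88% at an unadjusted p under 0.05, so neither shows that the gavages act alike. The sex differences in the G35 and G12 effects passed for 0 of 7 genes each, against 0.0222% and 0.0333% of all genes; the widest was Hsph1 under G12, at -0.78 ± 0.33 (adjusted p = 0.477; -0.50 without male control 1 replicate 3), the 1 value of these 14 with an unadjusted p under 0.05, a level that 6.17% of all genes reached for G35 and 9.28% for G12. Pancreatic acinar markers, of which 2 of 10 were measured, were high on some chicory arrays, with log2 sums of 11.93 to 15.99 in male G12 against 9.19 to 9.27 in male control 1, and 9.82 to 14.95 in female G12 against 9.17 to 12.33 in female control 1. In G35 mice these sums ran from 8.92 to 9.58 in males and from 9.49 to 15.22 in females. Their part in the G12 and G35 values was not tested.

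The 7 genes were then compared over the arrays after centring each on the mean of its sex and experiment. Of the 21 pairs, all correlated above 0, from 0.20 (Dnajb1 with Hspa4l) to 0.76 (Dnajb1 with Bag3), with a median of 0.45 over 30 arrays. Hsp90aa1 with Dnaja1 followed at 0.73, then Hsph1 with Hsp90aa1 at 0.65 and Hspe1 with Hspa4l at 0.64. With slide also taken out the pairs ran from 0.33 to 0.91, and with the gavage groups taken out from -0.22 (Dnaja1 with Hspe1) to 0.70 (Bag3 with Hspa4l), with a median of 0.32. These arrays share their slides and the genes were chosen together, so the values are a description.

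**Figure D3:**
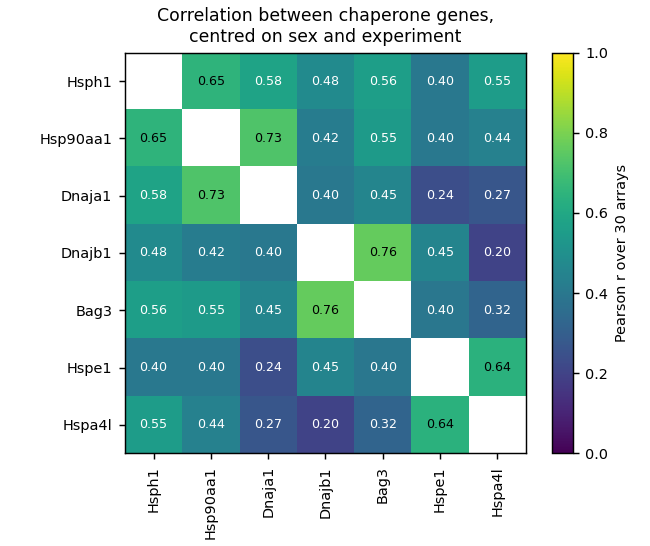
Pearson correlation (colour scale, 0 to 1) over 30 arrays between each pair of the 7 chaperone genes on both axes, after centring on sex and experiment. The pair of Dnajb1 and Bag3 is highest at 0.76 and the pair of Dnajb1 and Hspa4l lowest at 0.20.

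The mean of the 7 centred genes, each divided by its SD, gave a chaperone profile against which the other 8989 genes were ranked by Pearson r over the 30 arrays. P4ha1, a prolyl hydroxylase subunit of collagen synthesis, came first (r = 0.69), followed by the RNA helicase Ddx52 (0.68), Tmcc1 (0.67), the outer mitochondrial membrane protein Synj2bp (0.65), Dnajb4 (0.64), Fam13b (0.62), Chordc1 (0.61) and Zfand2a (0.60). Dnajb4 is a J-domain protein close to Dnajb1, Chordc1 an HSP90 cochaperone, and Zfand2a a proteasome-associated protein induced by arsenite. By Spearman's rho 7 of these 8 stayed among the first 8, and with slide taken out 3 did. The genes that ran most against the profile were Fadd (-0.66), a death receptor adaptor, Slc66a1 (-0.64), a lysosomal amino acid transporter, Gramd1c (-0.61) and Lpin3 (-0.61).

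Other chaperone genes were frequent near the top. Of 91 further chaperone and cochaperone genes on the lists, 9 (9.89%) were among the 50 genes most alike, against 0.556% of all genes. With slide taken out 8 (8.79%) were, and by Spearman's rho 7 (7.69%). The profile still holds the gavage differences on which the 7 genes were selected, and the lists were chosen with earlier results known. These counts are therefore a description. The 9 were Dnajb4, Chordc1, Dnajb2, Cacybp, Hspb1, Dnajb6, Ahsa1, Ppid and Ptges3, that is, J-domain proteins, HSP90 cochaperones and 1 small heat shock protein. Chordc1 was low in the same females: it read 8.28, 8.40 and 8.69 in female control 2, 8.89, 8.69 and 8.83 in female inulin and 8.64, 9.23 and 9.60 in female control 1. Its control 2 level in females lay below control 1 by a log2 difference of -0.70 ± 0.21.

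Cirbp, a cold-inducible RNA-binding protein whose transcript rises when body temperature falls, ran against the chaperones (r = -0.57), at rank 10 from the lowest of 8989 genes. Its rank from the lowest was 69.5 by Spearman's rho (-0.47) and 7 with slide taken out (-0.66). Cirbp read 9.86, 9.52 and 9.19 in female control 2 and 8.43, 8.05 and 8.93 in female control 1. In males it read 8.58, 9.10 and 9.07 in control 2 and 7.27, 8.09 and 9.01 in control 1, with overlap. Higher Cirbp in control 2 was thus not confined to females, while Hsph1 and Bag3 differed by only 0.05 and -0.07 in those males. Averaged over the sexes Cirbp was higher in control 2 by 0.92 ± 0.22 (adjusted p = 0.00463 in limma), where 13.6% of all genes passed as higher. In inulin females it stayed near control 2, at 9.05, 9.65 and 9.44. Male control 1 replicate 3, low in the chaperones, had the highest Cirbp of the male control 1 mice, 9.01 against 7.27 and 8.09. Rbm3, the other cold-inducible gene on the list, correlated only weakly with the chaperone profile (r = -0.16, rank 6956 of 8989 from the most alike). It stood at 0.22 ± 0.10 between control 2 and control 1 and did not pass. A part of body temperature in these values was not tested.

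**Figure D4:**
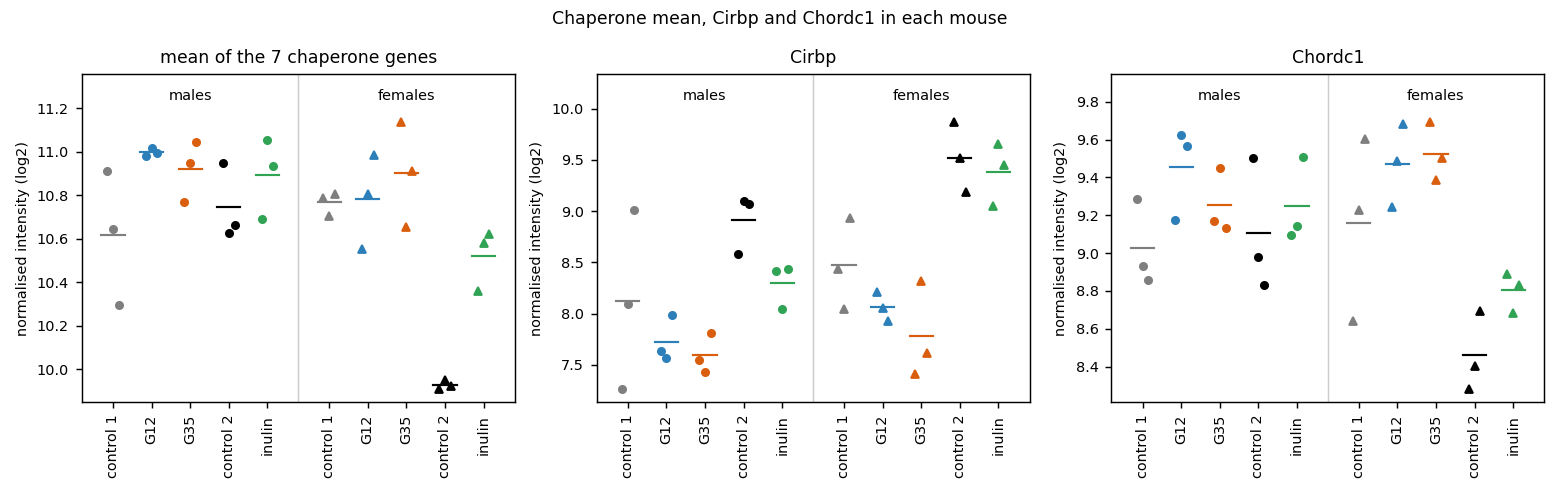
Mean log2 intensity of the 7 chaperone genes, and log2 intensity of Cirbp and of Chordc1 (y axes), in each mouse by group (x axis), with males as circles, females as triangles and group means as lines. Female control 2 mice have chaperone means of 9.91 to 9.95, the lowest of the 30 arrays, and Cirbp values of 9.19 to 9.86, at the high end.

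The rest of the folding machinery was followed on 9 other lists of chaperones and heat shock regulators, 91 genes in all. As among the 7 genes, 0 of them passed in limma in the 3 comparisons averaged over the sexes, against 0.0556% of all genes with G35 and 0% with G12 and inulin. Of the 91, 10 had an unadjusted p under 0.05 in limma with G35, 3 with G12 and 2 with inulin. The shares of all genes were 7.87%, 5.21% and 1.98%, and nothing is read from these counts. The directions below were not tested. The median of all genes was -0.01 with inulin, 0.01 with G12 and -0.01 with G35. With inulin, 10 of 16 HSP90 cochaperones and relatives stood higher, from Fkbp5 at -0.24 ± 0.15 to Ptges3 (p23) at 0.28 ± 0.12, with a median of 0.13. Of 18 ER chaperones 14 stood lower, with a median of -0.06, from Sdf2l1 at -0.13 ± 0.22 to Serpinh1 at 0.18 ± 0.13. Under G12, 16 of 16 HSP90 cochaperones stood higher, up to Chordc1 at 0.37 ± 0.15, with a median of 0.14. Under G35, 16 of 18 ER chaperones stood higher, up to Pdia4 at 0.64 ± 0.36, with a median of 0.14. Pancreatic acinar markers had log2 sums of 9.49 to 15.22 in female G35, and their part in these values was not tested.

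Hspa8, the constitutive HSP70, stood at 0.48 ± 0.41 with inulin, -0.13 ± 0.41 with G35 and 0.00 ± 0.41 with G12, with a standard error about as large as its difference under inulin. Hspd1, the HSP60 partner of Hspe1, stood at -0.0041 ± 0.10 with inulin, where Hspe1 stood at 0.21 ± 0.10, and at 0.23 ± 0.10 with G35. The stress-inducible HSP70 genes Hspa1a and Hspa1b and Hsf1 itself have no probe analysed here, so the induced HSP70 was not measured. Hsf2, a related factor, stood at 0.34 ± 0.15 with inulin and did not pass.

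Between the water groups, averaged over the sexes, 24 of the 91 genes on these lists passed (26.4%), against 22.9% of all genes, and nothing particular to chaperones is read from the counts per list. Lower in control 2 were 2 of 6 HSP70 relatives, Hspa8 at -1.58 ± 0.41 (adjusted p = 0.00832) and Hspa2 at -0.29 ± 0.08 (adjusted p = 0.0144), and 2 of 16 HSP90 cochaperones, Ptges3 at -0.57 ± 0.12 (adjusted p = 0.00189) and Nudc at -0.46 ± 0.10 (adjusted p = 0.00252). Of 11 cytosolic J-domain genes 4 were lower, Dnajc5, Dnajb6, Dnajb4 and Dnaja4, from -0.32 to -1.18, and Dnajc13 was higher at 0.49 ± 0.14. Hspbp1, 1 of 7 exchange factors, was lower at -0.36 ± 0.11, and Cryab, 1 of 5 small heat shock proteins, at -0.95 ± 0.18 (adjusted p = 0.000918). In mitochondria 4 of 12 were higher, among them Hspa9 at 0.60 ± 0.15, and Clpp was lower at -0.63 ± 0.13. Of 18 ER chaperones 4 were higher, including Hsp90b1 at 0.42 ± 0.14 and Canx at 0.45 ± 0.11, and 2 lower, Serpinh1 at -0.72 ± 0.13 and Dnajc10 at -0.43 ± 0.10.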

How the data were processed

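Liver RNA of 30 mice was read on one-colour Agilent arrays. Per the submitters' processing notes the scanner software was Agilent Feature Extraction, and its version and signal column are not given in the sources used here. The authors' deposited values are intensities on a linear scale, whole numbers from 39 to 65535 with unequal array medians, so no normalization is visible in them. They were background corrected with normexp (offset 50), quantile normalised and put on the log2 scale. Probes with 1 symbol (12544 of 15505) were kept, the probe with the highest mean standing for its gene. limma 3.58.1 in R 4.3.3 fitted 10 groups of sex and gavage over 30 arrays (20 residual degrees of freedom), with Benjamini-Hochberg adjustment over 8996 genes, and a gene passed at an adjusted p under 0.05. The number of arrays limits the precision. Other fits put slide in as a fixed block (12 degrees of freedom) or a random block (consensus correlation 0.386); scalings, filters and left-out arrays are described in the closing section.

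The 7 genes, the lists of other chaperones and markers and the tests were chosen with earlier results of these data known. Named genes are all 7, genes of the lists that passed or were highest or lowest (at most 4 per list), and the 8 most alike and 4 most opposed; for Dnajb2, Cacybp, Dnajb6, Ahsa1 and Ppid the choice was made after their values were seen. Same-numbered arrays had residual correlations of 0.12 to 0.71 in the chicory experiment (45 pairs, median 0.36), against -0.53 to 0.39 for other numbers (90 pairs). In the inulin experiment they lay at -0.52 to 0.40 (18 pairs) against -0.30 to 0.56 (36 pairs). The main fit holds no term for replicate number, so its differences and SEs are unpaired in both experiments. Replicate number was a block, in both experiments, only in another fit (16 degrees of freedom). Promoter windows and names are RefSeq's. Protein sequences were not used here.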

Additional observations from a re-analysis of the deposited data

Results flagged for a closer look

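The difference between the sexes in control 2 minus control 1, with slide as a fixed block, was -1.88 for Dnaja1 and -1.69 for Hsp90aa1. It is listed because the test of the difference passed there, while without slide 0 of the 7 genes passed. In the inulin experiment the sexes share 1 slide, slide 10, which holds 1 female array, female control 2 replicate 1, with male control 2 replicate 3 and male inulin replicate 2. That female array was the lowest of all 30 for both genes, at 11.28 for Dnaja1 and 9.73 for Hsp90aa1, so the values with slide rest on it. The female control 2 arrays also had a part in the choice of genes.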

How the results depend on the processing

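Of the medians over the 7 genes, 428 values under other settings stayed within the spread and 1 did not: the male difference between control 2 and control 1, 0.05 with all arrays, ran from -0.23 (without male control 1 replicate 3) to 0.25 when 1 array was left out. Counts of genes that passed stayed within 1.5 times in 417 cases and did not in 12. Females against males among controls, with 0 genes, gave 2 with slide as a fixed block, 2 with slide as a random block, 1 with replicate number as a block, and 0 to 1 without 1 array (1 without replicate 3 of female control 1, of female control 2 or of male control 1). Control 2 against control 1 in females, with 4, gave 0 on the arrays of those groups alone and 3 to 4 without 1 array. Females against males in control 2, with 4, gave 2 with slide fixed, 1 on those groups alone and 2 to 4 without 1 array. The sex difference in control 2 minus control 1, with 0, gave 2 with either slide block. Of differences that passed, 0 of 180 values under other settings changed sign. Of those that did not pass, 123 of 2676 did, as did 10 of 429 medians; among them the male G35 and G12 differences of Bag3 went from 0.22 and 0.03 to -0.03 and -0.22 without male control 1 replicate 3, and the inulin effect minus the G35 effect of Dnaja1 from 0.14 to -0.14 with slide fixed.

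With replicate number as a block the 1 gene that passed among controls was Dnaja1 (-0.48), and this block changed no other call. That fit takes the level of each experiment at its replicate 1, so its control 2 minus control 1 values are not comparable with the main ones. For Hsp90aa1 this moved the difference alike in males (-0.04 to -0.37) and in females (-1.28 to -1.62). The median of all genes in the inulin comparison moved from -0.01 to 0.11 under 75th percentile scaling. Averaged over the sexes, Hsp90aa1 (-0.66) did not pass between control 2 and control 1 on the control arrays alone. Dnaja1 passed there under 75th percentile scaling (-0.43) and median centring (-0.46), and Hspa4l without male control 1 replicate 3 (-0.37) or female control 2 replicate 1 (-0.35). The causes of these changes in calls were not tested. Slide was not a block for control 2 against control 1, whose slides differ. With 3 arrays a group, dim Hspa4l and the weak second Dnaja1 probe are limited by signal over background.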
